A study of Mus musculus with 12 samples.

Results

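Bile acid synthesis and transport were followed through 10 genes, taken from a table of 26301 mouse genes by matching Entrez identifiers to gene symbols. Cyp7a1, Cyp7b1, Cyp8b1 and Cyp27a1 encode cytochrome P450 enzymes of bile acid synthesis, Baat encodes the enzyme that conjugates bile acids to amino acids, Slc10a1, Slco1a1 and Slco1b2 encode uptake carriers of hepatocytes, Abcb11 encodes the bile salt export pump, and Nr0b2 encodes the repressor SHP. All 10 passed the filter on low counts.

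Bile acids are made from cholesterol in hepatocytes. The classic pathway starts with CYP7A1, the alternative pathway starts with CYP27A1 and continues with CYP7B1, and CYP8B1 directs the product toward cholic acid. Conjugated bile acids leave the cell through the export pump, return from the gut in portal blood and are taken up again by SLC10A1 and by carriers of the OATP family. Bile acids activate the nuclear receptor FXR (Nr1h4), which is known to raise SHP and the export pump and to lower the synthesis enzymes. In the liver lobule Cyp7a1 and Cyp27a1 are highest in hepatocytes near the central vein, and Cyp7b1 and Slco1a1 are known as genes with higher levels in male than in female mouse liver.

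RNA came from 12 libraries of 4 each. The control livers were non-tumor livers of wild-type mice. The tumors labelled DKO were liver tumors of mice with the genotype Alb-Cre-E2f7 E2f8 knockout, and those labelled TKO were liver tumors with the genotype Alb-Cre-Rb1 E2f7 E2f8 knockout. Cre driven by the albumin promoter acts mainly in hepatocytes, so that most other cells of the tissue keep these genes. All mice were labelled adult, were ageing mice that had reached humane end-points, and per the study's methods were bred into the FVB background. A tumor and a wild-type liver thus differed in genotype and in being a tumor, and these cannot be told apart. Each library came from a liver or tumor of its own per the study's methods. The p-values therefore measure the spread between animals together with technical spread.

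Total counts ran from 9165812 to 16424973 per library, and Alb, the albumin gene, took 4.82% to 22.7% of a library. Counts over the whole gene could not check the deletions of E2f7 and E2f8, since exons outside a deleted part are counted too. E2f8 ranged from 4.52 to 8.98 CPM (counts relative to the TMM-scaled library total) in control livers, from 7.59 to 45.6 CPM in the DKO tumors and from 12.3 to 52.3 CPM in the TKO tumors. Rb1 was at 3.21 to 5.47 CPM in the TKO tumors, below the 6.52 to 11.3 CPM of the other libraries. Every library carried reads of Y-linked genes and had 1 to 6 counts of Xist. Hepatocyte marker genes summed to between 120000 and 180000 CPM in control livers, 174000 and 433000 CPM in the DKO tumors and 70700 and 316000 CPM in the TKO tumors, so all 12 libraries were rich in hepatocyte RNA. edgeR called 0 of the 8 hepatocyte markers and 0 of 4 sex chromosome genes tested in every comparison. At an unadjusted p under 0.05, 1 hepatocyte marker was lower in the DKO tumors, which DESeq2 called, and 1 sex chromosome gene was lower in each comparison with control livers, which DESeq2 called over both genotypes. In tissue RNA a lower level can mean fewer cells of a type or less RNA per cell, and these cannot be told apart here.

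Sequence before the gene start is shown for 5 of the genes, because bile acids act on this pathway through nuclear receptors that bind DNA motifs. RefSeq promoter sequence (GRCm38.p6, 250 bases before to 50 bases after the gene start) was found for 7 of the 10 genes, as 8 promoters, with a pair for Slc10a1. Both strands were searched for AGGTCA, the motif that many nuclear receptors bind, for the inverted repeat AGGTCANTGACCT that FXR binds, for CAAGGNCA, the core bound by NR5A2, for GTTAAT, which HNF1 proteins bind, and for TTTCCCGC, TTTGGCGC, TTTGCCGC and TTTCGCGC, which E2F proteins bind. Each sequence runs in the direction of its gene, and capitals mark the matches. In GRCm38.p6 the stretch shown for Abcb11 lies at chr2:69342617-69342716 on the minus strand and that for Nr0b2 at chr4:133553126-133553225 on the plus strand. The stretch for Slco1b2 lies at chr6:141629418-141629517 on the plus strand, that for Slco1a1 at chr6:141946963-141947112 on the minus strand and that for Cyp8b1 at chr9:121916306-121916405 on the minus strand. The spans of whole genes given below are in mm9, another build.
Abcb11: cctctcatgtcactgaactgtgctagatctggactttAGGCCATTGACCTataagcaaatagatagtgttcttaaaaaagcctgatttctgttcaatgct
Slco1b2: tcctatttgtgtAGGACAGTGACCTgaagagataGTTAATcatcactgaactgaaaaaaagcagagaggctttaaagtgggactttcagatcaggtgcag
Slco1a1: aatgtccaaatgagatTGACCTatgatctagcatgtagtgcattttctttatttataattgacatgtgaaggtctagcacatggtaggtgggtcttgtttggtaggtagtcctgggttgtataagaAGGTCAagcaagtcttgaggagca
Nr0b2: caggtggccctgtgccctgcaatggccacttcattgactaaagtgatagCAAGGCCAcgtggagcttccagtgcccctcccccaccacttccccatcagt
Cyp8b1: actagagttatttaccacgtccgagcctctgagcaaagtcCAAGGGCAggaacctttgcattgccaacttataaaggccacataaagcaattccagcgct

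None of the 8 promoters held the exact inverted repeat, which 3 of 32851 RefSeq promoters held (0.00913%). With 1 mismatch allowed, a choice made after the exact search was seen, the repeat stood 63 bases before the start of Abcb11 and 88 bases before the start of Slco1b2, and in 27 of 32851 promoters (0.0822%). In both genes the second arm of that repeat is also a match to AGGTCA on the other strand. AGGTCA was found in 4 of the genes (Abcb11, Slco1b2, Slco1a1 and Slc10a1) and in 16.3% of all promoters. The NR5A2 core stood 201 bases before the start of Nr0b2 and 60 bases before the start of Cyp8b1, and in 6.71% of all promoters. GTTAAT was found 66 bases before the start of Slco1b2 and in 7.1% of all promoters, and the E2F motifs were found in none of the 8 promoters and in 2.26% of all. A match is a run of letters and not evidence of binding.

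In control livers the order of the levels was read per length, in RPKM (CPM per kilobase of exon). Slc10a1, the main sodium-dependent bile acid carrier, stood at 473 ± 169 RPKM (SD, n = 4 here and for the other control levels) and Slco1b2 at 358 ± 11.7 RPKM. Cyp27a1 followed at 281 ± 68.5 RPKM, Cyp7b1 at 255 ± 96.5 RPKM, Baat at 223 ± 9.4 RPKM and Slco1a1 at 198 ± 27 RPKM. Cyp8b1 was at 157 ± 168 RPKM, Cyp7a1 at 101 ± 26.5 RPKM, Abcb11 at 71.7 ± 20.6 RPKM and Nr0b2 at 8.61 ± 2.9 RPKM. Neighbours in this order overlapped between libraries except Slco1b2 against Cyp27a1 and Abcb11 against Nr0b2. In the DKO tumors Slco1b2 was highest at 267 ± 188 RPKM and in the TKO tumors Slc10a1 was highest at 290 ± 114 RPKM, and Nr0b2 was lowest in both, at 19 ± 11.8 and 17.5 ± 9.36 RPKM. In the tumors every pair of neighbours overlapped except Abcb11 against Nr0b2 in the TKO tumors.

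**Figure D1:**
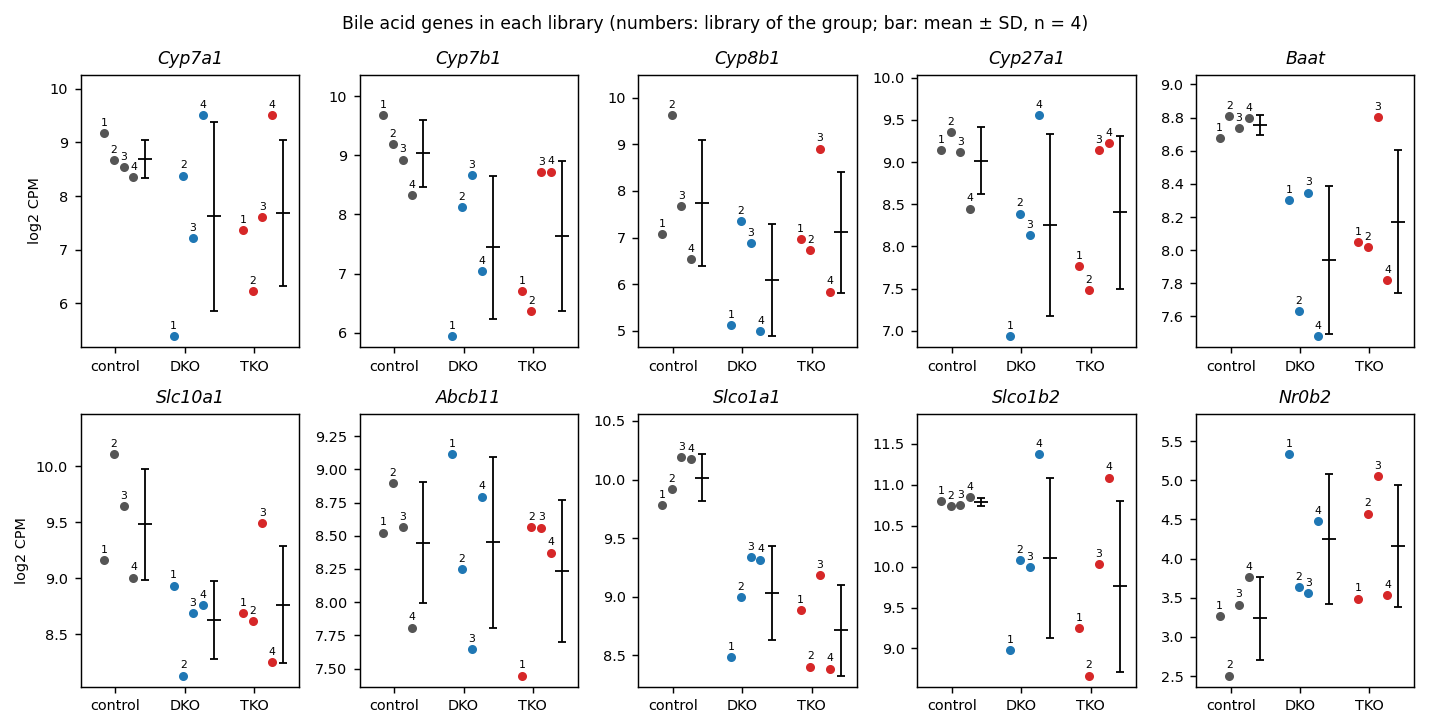
Log2 CPM of the 10 genes in each library, 1 panel a gene with its own scale, with the control livers in grey, DKO tumors in blue and TKO tumors in red, numbered by library, and the mean ± SD of 4 libraries as a bar. Slco1a1 lies lower in all 8 tumors than in all 4 control livers, while Cyp7a1 and Slco1b2 reach from far below the control livers to above them within each tumor genotype.

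The synthesis enzymes were spread widely among tumors, and none of the 4 was called in any comparison by edgeR or DESeq2. Their unadjusted edgeR p was under 0.05 for Cyp8b1 in the DKO tumors (0.0485) and for Cyp7b1 over both genotypes (0.037). Cyp7a1 (Entrez 13122, chr4:6192759-6202780 in mm9, minus strand), the rate-limiting enzyme of the classic pathway, was at 580, 407, 371 and 327 CPM in control livers 1 to 4, at 41.7, 334, 148 and 731 CPM in DKO tumors 1 to 4 and at 164, 74.9, 196 and 732 CPM in TKO tumors 1 to 4. DKO tumor 4 and TKO tumor 4 lay above all control livers and 5 of the other 6 tumors lay below them. DKO tumor 2 was inside the control range. The range from the lowest to the highest library was 1.77-fold in control livers, 17.5-fold in the DKO tumors and 9.77-fold in the TKO tumors. The log2 fold change against control was -0.42 (95% interval -2.08 to 1.24) in the DKO tumors and -0.53 (-2.19 to 1.13) in the TKO tumors.

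Cyp27a1 (Entrez 104086, chr1:74760148-74784464, plus strand), the mitochondrial enzyme that starts the alternative pathway, was at 563, 656, 557 and 349 CPM in control livers 1 to 4, at 122, 335, 281 and 754 CPM in DKO tumors 1 to 4 and at 218, 179, 565 and 597 CPM in TKO tumors 1 to 4. DKO tumor 4 lay above the control range, TKO tumors 3 and 4 within it and the other 5 tumors below it. Its log2 fold change was -0.51 ± 0.515 (SE) in the DKO tumors and -0.45 ± 0.515 in the TKO tumors.

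Cyp7b1 (Entrez 13123, chr3:17971950-18143338, minus strand), the oxysterol hydroxylase of the alternative pathway, was at 821, 584, 487 and 321 CPM in control livers 1 to 4. In the DKO tumors it was at 61.2, 279, 407 and 131 CPM and in the TKO tumors at 104, 82.5, 420 and 422 CPM. DKO tumor 3, TKO tumor 3 and TKO tumor 4 lay within the control range and the other 5 tumors below it. The log2 fold change was -1.33 ± 0.633 (SE, adjusted p = 0.224) in the DKO tumors, -1.11 ± 0.63 (adjusted p = 0.412) in the TKO tumors and -1.22 ± 0.522 (adjusted p = 0.185) over both genotypes. The gene overlaps an annotated U1 RNA gene on its own strand.

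Cyp8b1 (Entrez 13124, chr9:121823474-121825423, minus strand), the single-exon gene of the enzyme that leads to cholic acid, was at 135, 792, 205 and 92.8 CPM in control livers 1 to 4. It was at 34.9, 163, 118 and 31.6 CPM in DKO tumors 1 to 4 and at 124, 106, 480 and 57.3 CPM in TKO tumors 1 to 4. Its range among control livers, 8.54-fold, was the widest of the 10 genes, and the groups overlapped. Its log2 fold change was -1.82 (95% interval -3.62 to -0.01, adjusted p = 0.205 in edgeR) in the DKO tumors and -0.67 (-2.43 to 1.08) in the TKO tumors. Without control liver 2 the value was -0.73 in the DKO tumors and 0.41 in the TKO tumors.

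Baat (Entrez 12012, chr4:49502294-49519429, minus strand), which joins bile acids to taurine and glycine, was steady in control livers at 409, 448, 426 and 445 CPM. It was at 315, 198, 325 and 178 CPM in DKO tumors 1 to 4, all below the control range, and at 264, 259, 446 and 226 CPM in TKO tumors 1 to 4, of which tumor 3 lay within that range. The log2 fold change was -0.76 ± 0.253 (SE, edgeR adjusted p = 0.0992) in the DKO tumors, -0.53 ± 0.252 (adjusted p = 0.322) in the TKO tumors and -0.65 ± 0.213 (adjusted p = 0.103) over both.

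Of the uptake carriers, Slco1a1 separated tumors from livers. Slco1a1 (Entrez 28248, chr6:141855803-141895483, minus strand), a carrier of the OATP family for bile acids and other organic anions, was at 881, 965, 1170 and 1150 CPM in control livers 1 to 4, at 358, 510, 646 and 638 CPM in DKO tumors 1 to 4 and at 473, 339, 581 and 335 CPM in TKO tumors 1 to 4. All 8 tumors lay below all 4 control livers. It fell over both genotypes by 1.11 on the log2 scale (SE 0.209, 95% interval -1.57 to -0.66, edgeR adjusted p = 0.0405), and the exact two-sided permutation test over libraries gave p = 0.00202, the smallest that 8 against 4 allow. Each genotype alone missed the threshold, with -0.95 ± 0.251 (adjusted p = 0.062) in the DKO tumors and -1.27 ± 0.253 (adjusted p = 0.0908) in the TKO tumors. The tumor genotypes did not differ detectably, with a log2 difference of -0.32 (95% interval -0.86 to 0.22) for TKO against DKO. The gene overlaps a 7SK RNA gene on its own strand.

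The size of the Slco1a1 difference was steady across settings, from -1.24 to -0.99 for both genotypes against control, and from -1.2 to -1.05 as each library was left out. Its adjusted p was close to the threshold. It passed without DKO tumor 3 (0.0312), DKO tumor 4 (0.0457), TKO tumor 3 (0.0128) or TKO tumor 4 (0.0448) and missed without control liver 1 (0.057), 2 (0.132), 3 (0.146) or 4 (0.0628), DKO tumor 1 (0.0635) or 2 (0.0713), or TKO tumor 1 (0.0708) or 2 (0.0724), all in edgeR. The fits in which it missed called 0 to 19 of all genes, and those in which it passed called 87 to 1019. It also missed with total counts as the only scaling (-0.99, adjusted p = 0.0691) and with the level of Y-linked genes as a covariate (-1.09, adjusted p = 0.33), a fit in which no gene of the 13882 passed. That level (mean log2 CPM) was 4.51 to 4.99 in control livers, 3.94 to 4.48 in the DKO tumors and 3.86 to 4.76 in the TKO tumors. The covariate thus takes up part of the group difference. Every library carried Y-linked reads, so it is not an adjustment for sex.

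Slco1b2 (Entrez 28253, chr6:141578039-141635167, plus strand), the OATP carrier that brings unconjugated bile acids into mouse hepatocytes, was within 1.07-fold among control livers, at 1780, 1710, 1730 and 1840 CPM. It was at 506, 1080, 1020 and 2650 CPM in DKO tumors 1 to 4 and at 609, 407, 1040 and 2170 CPM in TKO tumors 1 to 4, a range of 5.24-fold and 5.35-fold. DKO tumor 4 and TKO tumor 4 lay above every control liver and the other 6 tumors below every control liver. Differences from control were small beside their errors, at a log2 fold change of -0.43 ± 0.534 (SE) and -0.74 ± 0.536 in the DKO and TKO tumors.

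Slc10a1 (Entrez 20493, chr12:82054172-82068971, minus strand), which takes up conjugated bile acids with sodium, was at 573, 1100, 800 and 513 CPM in control livers 1 to 4. It was at 489, 280, 412 and 434 CPM in DKO tumors 1 to 4, below every control liver, and at 413, 393, 719 and 305 CPM in TKO tumors 1 to 4, where tumor 3 overlapped the control livers. The log2 fold change was -0.89 ± 0.315 (SE, edgeR adjusted p = 0.117) in the DKO tumors, -0.71 ± 0.314 (adjusted p = 0.291) in the TKO tumors and -0.80 ± 0.264 (adjusted p = 0.104) over both.

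Abcb11 (Entrez 27413, chr2:69076339-69180671, minus strand), the pump that moves bile salts into the canaliculus, was at 368, 476, 379 and 224 CPM in control livers 1 to 4, at 554, 304, 201 and 444 CPM in DKO tumors 1 to 4 and at 174, 378, 378 and 331 CPM in TKO tumors 1 to 4, and all groups overlapped. Its log2 fold change was 0.05 (95% interval -0.69 to 0.8) in the DKO tumors and -0.20 (-0.94 to 0.55) in the TKO tumors. The annotated spans of 3 genes on either strand overlap that of Abcb11, and the strand setting of the counting was not given in the sources used here.

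Nr0b2 (Entrez 23957, chr4:133109291-133112451, plus strand), the repressor SHP that FXR induces, was the gene of the 10 with a higher mean in both tumor genotypes. It was at 9.49, 5.53, 10.5 and 13.5 CPM in control livers 1 to 4, at 40.2, 12.3, 11.7 and 22.2 CPM in DKO tumors 1 to 4 and at 11.1, 23.7, 33.1 and 11.4 CPM in TKO tumors 1 to 4, from 45 to 524 counts. DKO tumors 1 and 4 and TKO tumors 2 and 3 lay above the control range and the other 4 tumors within it. The log2 fold change was 1.13 ± 0.459 (SE, edgeR adjusted p = 0.157) in the DKO tumors, 1.01 ± 0.459 (adjusted p = 0.301) in the TKO tumors and 1.07 ± 0.413 (adjusted p = 0.148) over both.

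**Figure D2:**
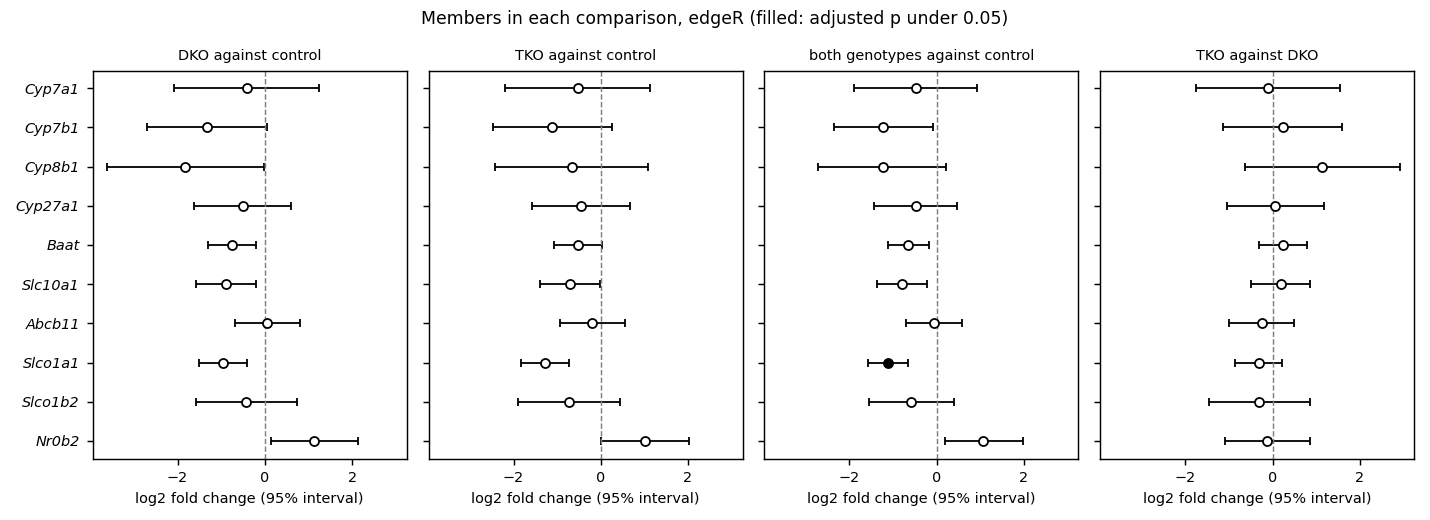
Log2 fold change of each gene with its 95% interval from edgeR in the 4 comparisons, filled where the adjusted p is under 0.05. Slco1a1 over both genotypes, at -1.11, is the filled point, and the intervals of Cyp7a1, Cyp8b1 and Slco1b2 are wide, as for Cyp8b1 in the DKO tumors from -3.62 to -0.01.

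Taken over the 10 genes, none passed in the DKO tumors, where edgeR called 2.42% of the 13882 genes tested and called 1.01% lower. At an unadjusted p under 0.05, 1 was higher and 4 were lower, beside 24% of all genes in either direction. Their median log2 fold change was -0.64, beside 0.02 over all genes tested, with 8 of 10 below 0. Baat, Slc10a1 and Slco1a1 did not overlap the control livers and lay below them, 3 of 10 beside 7.3% of all genes. DESeq2, the tool that the study's methods name, called those 3 lower (adjusted p of Slco1a1 = 0.00373) and called 10.4% of all genes it tested.

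In the TKO tumors none of the 10 passed, where edgeR called 0.0864% of all genes. The unadjusted p was under 0.05 for 1 higher gene and 2 lower genes, beside 16.3% of all genes in either direction. The median log2 fold change was -0.60 beside 0.02 over all genes. Slco1a1 alone did not overlap the control livers and was lower, beside 3.29% of all genes, and it was the gene DESeq2 called (adjusted p = 7.92e-05, with 3.49% of all genes called).

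For both tumor genotypes against control, which shares its libraries with the comparisons above, 1 of 10 passed, Slco1a1. edgeR called 2.48% of all genes and 1.22% lower, and 1.46% of all genes lay lower with no overlap, as Slco1a1 did. DESeq2 called Baat, Slc10a1 and Slco1a1 lower and called 9.49% of all genes. Voom with quality weights called the same genes. At an unadjusted p under 0.05 in edgeR, 1 was higher and 4 were lower, beside 23% of all genes. The median log2 fold change was -0.62 beside 0.02. Without TKO tumor 3, edgeR also called Baat (-0.78, adjusted p = 0.0294) and Slc10a1 (-0.95, adjusted p = 0.0354), in a fit that called 1019 of 14163 genes against 344 of 13882 with all libraries.

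Between the tumor genotypes, TKO against DKO, none of the 10 passed in edgeR or DESeq2 and none had an unadjusted p under 0.05. edgeR called 0% of all genes, with 717 higher and 533 lower (9% of all genes) at an unadjusted p under 0.05, and DESeq2 called 0.398%. The median log2 difference of the 10 genes was -0.02, and the values ran from -0.32 for Slco1a1 to 1.14 for Cyp8b1 (95% interval -0.63 to 2.92), which was 0.15 without TKO tumor 3. For the synthesis enzymes the intervals also covered several-fold changes, as from -1.76 to 1.55 for Cyp7a1, so these data do not show that the genotypes were alike.

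The genes differed widely in how much they varied within a group. The SD of log2 CPM within a group had a median over the 10 genes of 0.426 in control livers, 0.906 in the DKO tumors and 0.841 in the TKO tumors, beside 0.293, 0.289 and 0.324 over all genes tested. This is a description with no test. The SD of Cyp7a1 was 0.354 in control livers, 1.76 in the DKO tumors and 1.36 in the TKO tumors. That of Slco1b2 was 0.047, 0.979 and 1.05. Slc10a1 was at 0.498, 0.348 and 0.521, about alike in the 3 groups.

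Cyp7a1, Cyp27a1 and Slco1b2 followed each other across libraries, with a Pearson r of log2 CPM of 0.926 for Cyp7a1 with Slco1b2, 0.904 for Cyp7a1 with Cyp27a1 and 0.892 for Cyp27a1 with Slco1b2 (n = 12 libraries). These are descriptions. As deviations from the group means the values were 0.936, 0.888 and 0.907. Baat and Slc10a1 went together less closely, at 0.805 and 0.619. The same 3 genes followed the summed level of 9 pericentral genes (Glul, Cyp2e1, Cyp1a2, Axin2, Lgr5, Oat, Rgn, Lect2 and Slc1a2), genes that mark hepatocytes near the central vein. That sum was 10800, 16200, 14400 and 10100 CPM in control livers 1 to 4, 1300, 11900, 4670 and 29500 CPM in DKO tumors 1 to 4 and 2350, 1930, 9950 and 39300 CPM in TKO tumors 1 to 4. DKO tumor 4 and TKO tumor 4 were thus above all control livers, the same tumors in which Cyp7a1 and Slco1b2 were highest. In these tumors Glul reached 7470 and 10300 CPM, against 463 to 781 CPM in control livers, while the sum of 8 periportal genes was 598 and 832 CPM against 5530 to 7430 CPM. Of the periportal genes 7 of 8 had a lower mean in each tumor genotype, edgeR called 0, 1 was higher at an unadjusted p under 0.05, and DESeq2 called that 1.

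Over the 12 libraries the relation with the log2 pericentral sum, looked at after the values were seen, gave r = 0.939 and rho = 0.951 for Cyp7a1 (permutation p = 1e-05 and 2e-05, adjusted 5e-05 and 0.0002), where 1e-05 is the smallest that the 100000 resamples can give. It gave r = 0.93 and rho = 0.874 for Cyp27a1 (adjusted permutation p = 5e-05 and 0.002) and r = 0.934 and rho = 0.867 for Slco1b2 (adjusted permutation p = 0.0001 and 0.002). Adjustment ran over 10 relations, 1 a gene. Without DKO tumor 1 and TKO tumor 2, the libraries farthest from the median, r was 0.873, 0.849 and 0.882, and as deviations from the group means it was 0.937, 0.932 and 0.96. Cyp7b1 gave r = 0.655 and rho = 0.608 (adjusted permutation p = 0.0521 and 0.0985), which dropped to r = 0.271 without those libraries. For the other 6 genes, Cyp8b1 among them at r = 0.135 and rho = 0.098, the adjusted permutation p ran from 0.218 up. Without the same libraries Abcb11 went from r = 0.141 to 0.768, Slco1a1 from 0.388 to -0.047 and Nr0b2 from -0.424 to 0.066. edgeR and DESeq2 called 0 of the 9 pericentral genes in every comparison, with 1 higher in the TKO tumors at an unadjusted edgeR p under 0.05. In each tumor genotype 6 of the 9 had a higher mean and 3 a lower mean (median log2 fold change 0.98 in the DKO tumors and 1.14 in the TKO tumors). The median of the sum was nevertheless 12600 CPM in control livers, 8280 CPM in the DKO tumors and 6150 CPM in the TKO tumors. A sum of CPM weighs genes by their level and does not stand for each of the 9. None of the 9 was at 0 in any library, and the part of this zone pattern in the members' values was not tested.

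**Figure D3:**
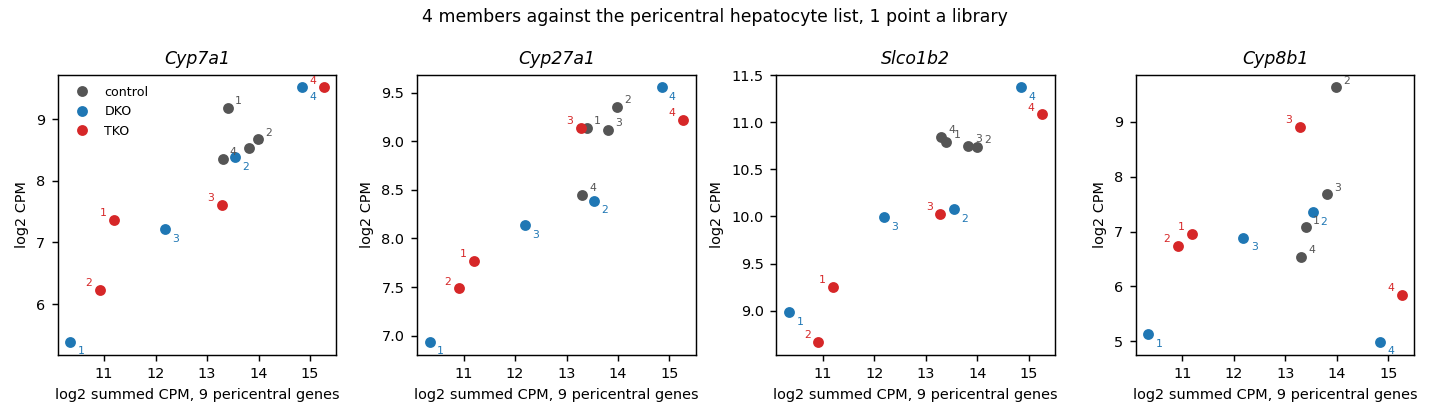
Log2 CPM of Cyp7a1, Cyp27a1, Slco1b2 and Cyp8b1 against the log2 summed CPM of 9 pericentral hepatocyte genes, 1 point a library, numbered by library and colored by group. Over the 12 libraries the first 3 rise with the sum (r = 0.939, 0.93 and 0.934), while Cyp8b1 does not (r = 0.135). Among the 8 tumors r was 0.957, 0.944, 0.955 and -0.055. Slco1b2 stays nearly flat among the 4 control livers.

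Of 10 genes known for higher levels in male liver, 9 had a lower mean in the DKO tumors (median log2 fold change -1.63) and 8 in the TKO tumors (median -0.73), and edgeR called 1 of them lower in the DKO tumors (6 lower at an unadjusted p under 0.05, 5 called by DESeq2) and 0 in the TKO tumors (1 lower at an unadjusted p under 0.05, 0 called by DESeq2). Their summed level was 3490 to 4430 CPM in control livers, 841 to 3060 CPM in the DKO tumors and 942 to 4350 CPM in the TKO tumors, and none of the 10 was at 0 in any library. The 10 female-biased genes had a median of 1.68 in the DKO tumors and 0.02 in the TKO tumors, with 0 called by edgeR, 4 and 1 higher at an unadjusted p under 0.05, and 2 and 0 called by DESeq2. Slco1a1 and Cyp7b1 are themselves male-biased. The part of this pattern in their values was not tested. Lists for cholangiocytes, endothelium, macrophages, stellate cells and lymphocytes had 0 genes called by edgeR in any comparison, and at most 2 of a list had an unadjusted p under 0.05. DESeq2 called 2 endothelial genes higher in the DKO tumors and over both genotypes.

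SHP is known to repress the synthesis enzymes, so the level of Nr0b2 was set against the other 9 genes over the 12 libraries. With Cyp7a1 it gave r = -0.577 (permutation p = 0.0491, adjusted 0.221) and rho = -0.538 (permutation p = 0.0751, adjusted 0.302), and r was -0.285 without DKO tumor 1 and TKO tumor 3, so that it rested on those libraries. Other relations moved away from 0 without the same libraries (n = 10), Cyp8b1 from r = -0.447 to -0.786, Baat from -0.201 to -0.609 and Slc10a1 from -0.226 to -0.587, and that of Abcb11 moved from 0.323 to -0.02. With Cyp7b1 it gave r = -0.645 (adjusted permutation p = 0.22) and rho = -0.727 (adjusted permutation p = 0.0943), and r was -0.745 without those libraries. Over the 12 libraries, none of the 9 relations passed after adjustment. Within groups, as deviations from the group means, r was -0.464 for Cyp7a1 and -0.446 for Cyp7b1. It was -0.277 for Cyp8b1, -0.266 for Cyp27a1, -0.273 for Slco1b2 and -0.07 for Slco1a1. It was above 0 for Baat (0.414), Slc10a1 (0.297) and Abcb11 (0.473). Among the 8 tumors r was 0.43, 0.718 and 0.814 for those genes, and from -0.496 (Cyp7a1) to -0.068 (Cyp8b1) for the others. These within-group and tumor values are descriptions.

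Beyond these genes, 52 further bile acid genes were listed, of which 49 passed the filter on low counts. edgeR called 2 of 49 lower in the DKO tumors, 0 in the TKO tumors, 0 between the tumor genotypes and 1 lower over both genotypes, and none higher, against the shares of all genes given above. At an unadjusted p under 0.05, 4 were higher and 11 lower in the DKO tumors, 2 higher and 7 lower in the TKO tumors, 2 higher and 2 lower between the genotypes, and 3 higher and 12 lower over both, again against the shares of all genes above. DESeq2 called 1 higher and 7 lower in the DKO tumors, 3 lower in the TKO tumors, 1 lower between the genotypes, and 2 higher and 6 lower over both. Its shares of all genes, in either direction, were 10.4%, 3.49%, 0.398% and 9.49%. The mean was lower than in control livers for 33 of 49 in the DKO tumors (median log2 fold change -0.28) and for 31 of 49 in the TKO tumors (median -0.18). By role, the median in the DKO tumors was -0.47 for 18 genes of synthesis and conjugation, 0.07 for 14 transporters and -0.30 for 15 regulators, and in the TKO tumors -0.18, -0.11 and -0.18.

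Nr1h4, the bile acid receptor FXR, was lower in every tumor than in every control liver, at 109, 146, 148 and 118 CPM in control livers 1 to 4, at 76.8, 65, 93.1 and 53.9 CPM in DKO tumors 1 to 4 and at 88.5, 88.3, 107 and 81.7 CPM in TKO tumors 1 to 4. Of all genes, 1.46% lay lower in every tumor in this way. Nr1h4 fell by 0.85 on the log2 scale in the DKO tumors (SE 0.179, edgeR adjusted p = 0.0425) and by 0.68 over both genotypes (SE 0.151, adjusted p = 0.0444). In the TKO tumors alone it was at -0.51 ± 0.178 (adjusted p = 0.198). These calls were lost when some single libraries were left out, in fits that called fewer of all genes. In the DKO tumors 0 of the 49 genes were called without any of control livers 2 to 4, DKO tumors 1, 2 and 4 or TKO tumor 1. Those fits called 0 to 96 of all genes, beside 336 with all libraries. Over both genotypes Nr1h4 was called without DKO tumor 3 or TKO tumor 3, where 395 and 1019 of all genes were called. With any other library left out it was not called, in fits that called 0 to 318 of all genes, beside 344 with all libraries. Both calls were also lost with total counts as the only scaling, which called 59 and 61 of all genes.

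Sult2a8, a liver sulfotransferase that acts on bile acids, was at 822, 1240, 1220 and 671 CPM in control livers 1 to 4, at 84.6, 216, 328 and 40.3 CPM in DKO tumors 1 to 4 and at 292, 285, 751 and 639 CPM in TKO tumors 1 to 4. All DKO tumors lay below all control livers, as was so for 7.3% of all genes. TKO tumor 3 overlapped the control livers. It fell in the DKO tumors by 2.57 on the log2 scale (SE 0.583, edgeR adjusted p = 0.0478). The value in the TKO tumors was -1.01 ± 0.556 (adjusted p = 0.397), and the difference between the genotypes missed the threshold as well, at 1.56 ± 0.564 (adjusted p = 0.488). The call was lost with total counts as the only scaling, and without any of control livers 1 to 4, DKO tumors 1, 2 or 4 or TKO tumor 1, which left 1 of the 49 genes called without control liver 1 and 0 without the others. Of all genes, total counts called 59 and those fits with a library left out called 0 to 166, beside 336 with all libraries.

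**Figure D4:**
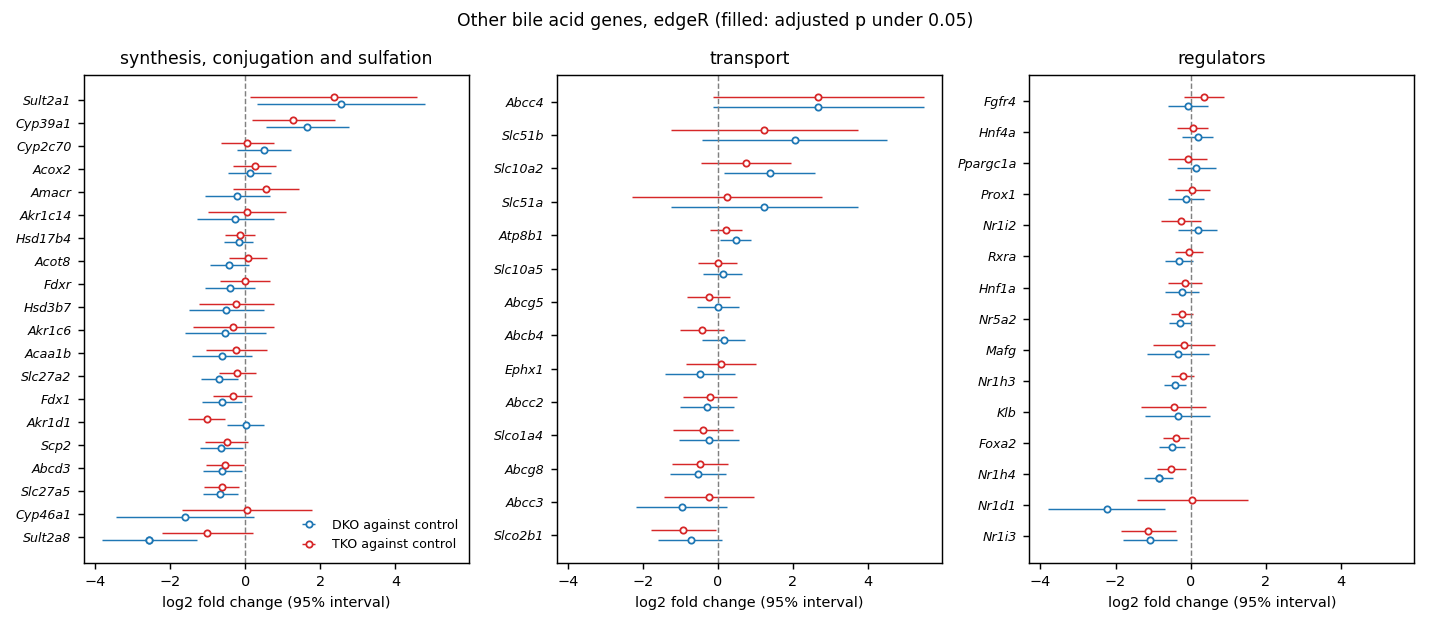
Log2 fold change with its 95% interval from edgeR for the 49 further bile acid genes tested, by role, with the DKO tumors in blue and the TKO tumors in red against control livers, and filled points where the adjusted p is under 0.05. The filled points are Nr1h4 (-0.85) and Sult2a8 (-2.57) in the DKO tumors, and Abcc4 has the widest interval of the 49 genes, from -0.14 to 5.49 in the DKO tumors.

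The highest and lowest of the other listed genes did not pass in edgeR. Abcc4, a basolateral exporter of bile acids, was at 2.67 ± 1.3 (log2 fold change, SE) in the DKO tumors and 2.68 ± 1.3 in the TKO tumors. DKO tumor 4 stood at 102 CPM and TKO tumor 4 at 116 CPM, with the other 6 tumors between 3.27 and 12.4 CPM and the control livers between 2.7 and 6.67 CPM. Sult2a1, a sulfotransferase of bile acids and steroids, was at 2.55 and 2.35 but reached no more than 11.4 CPM. Slc51b, a subunit of the basolateral exporter of bile acids, was at 2.05 in the DKO tumors and ran from 0.153 to 7.74 CPM over all libraries.

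Cyp39a1, an oxysterol hydroxylase, was at 1.65 ± 0.512 (adjusted p = 0.0862) in the DKO tumors and 1.28 ± 0.508 (adjusted p = 0.243) in the TKO tumors. Every DKO tumor lay above every control liver, at 38.8 to 94.8 CPM against 13.4 to 37.3 CPM. In the DKO tumors 2 of the 49 genes lay higher and 9 lower with no overlap, beside 8.87% and 7.3% of all genes. The TKO tumors ran from 18 to 101 CPM and overlapped the control livers. Nr1i3, the receptor CAR, was at -1.08 ± 0.336 (adjusted p = 0.0867) and -1.13 ± 0.337 (adjusted p = 0.154). Nr1d1, the clock repressor REV-ERB alpha, was at -2.24 in the DKO tumors and 0.05 in the TKO tumors, and ranged from 22.6 to 135 CPM among control livers. Cyp46a1, the enzyme known for cholesterol hydroxylation in brain, was at -1.61 in the DKO tumors with 4 to 33 counts per DKO tumor.

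Akr1d1, the reductase that gives bile acids their bent ring, was steady in control livers at 291, 274, 281 and 291 CPM, was at 334, 205, 268 and 338 CPM in DKO tumors 1 to 4 and at 210, 129, 109 and 109 CPM in TKO tumors 1 to 4. All TKO tumors lay below all control livers, as was so for 3.29% of all genes, and TKO tumor 1 overlapped the DKO tumors. The log2 fold change was -1.03 ± 0.231 (edgeR adjusted p = 0.109) for TKO against control, 0.01 ± 0.229 for DKO against control and -1.04 ± 0.231 (adjusted p = 0.281) for TKO against DKO, which DESeq2 called.

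The genes whose log2 CPM was most like each of the 10 over the 12 libraries are given as a description (Pearson r, n = 12, the 3 highest of all genes tested, of which 2 are given for Baat). Rnase4 (0.936), Ang (0.935) and the pericentral Cyp2e1 (0.926) were most like Cyp7a1, and Cyp2e1 (0.967), Aqp9 (0.961) and Hgd (0.946) most like Cyp27a1. Slco1b2 was most like Hpgd (0.964), Rmdn2 (0.954) and 1810058I24Rik (0.95). Slco1a1 was most like Cul4a (0.966), Inpp5a (0.927) and Dcaf11 (0.902), Slc10a1 most like Mrps9 (0.973), Fam122a (0.952) and Pxmp2 (0.949), and Baat most like Tmem266 (0.965) and Wfdc21 (0.958). Cyp7b1 had Arl6ip1 (0.918), Tmem243 (0.914) and Usp38 (0.911), Cyp8b1 had Fggy (0.913), Cox5b (0.909) and Mccc2 (0.908), Abcb11 had Chrd (0.887), 4930581F22Rik (0.877) and Camk1d (0.867), and Nr0b2 had Itga5 (0.877), Chd4 (0.875) and Tfe3 (0.859).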

How the data were processed

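The authors isolated poly(A) RNA, sequenced 40-base reads on a SOLiD 5500 W, aligned them by BWA against mm9 and ran FeatureCounts. What they deposited are unscaled counts for 26301 Entrez genes in 12 libraries, with totals of 9165812 to 16424973 that limit the precision of low genes such as Nr0b2. Program versions, strandedness and the handling of multi-mapping reads are not given in the sources used here. Symbols were found for 24191 genes, which held 99.4% of all counts. Groups came from the genotype labels and replicate numbers from the sample titles. Same-numbered libraries are of different mice, and the correlation of their deviations from the group means was -0.174 to 0.37 (median 0.0225, over 0.1 in 5 of 12 pairs), so the numbers were not used to pair libraries.

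Counts were normalized by TMM and tested with the quasi-likelihood test of edgeR 4.0.16 (R 4.3.3) on 13882 genes kept by filterByExpr, with all 12 libraries, a mean for each group, equal weight for both genotypes in the joint comparison, and Benjamini-Hochberg adjustment over all genes tested at 0.05. CPM used TMM-scaled totals, RPKM the exon length of GENCODE vM1 (mm9), and log2 CPM a prior count of 2. Intervals are 95% intervals from edgeR's standard error and degrees of freedom. Exact permutation tests were two-sided over libraries, with 0.0286 as the smallest p for 4 against 4. Correlations used 100000 resamples.

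The 10 genes, the 52 further bile acid genes and the marker lists (hepatocyte, cholangiocyte, endothelial, macrophage, stellate cell, lymphocyte, pericentral, periportal, male-biased, female-biased and sex chromosome genes) were chosen with earlier results of these data known. Of the further genes, those called and the 3 highest and 3 lowest in each comparison with control livers were named. Alternatives were DESeq2 1.42.0, DESeq2 size factors inside edgeR, scaling by total counts alone, a floor of 10 counts in all libraries, no filter, only the libraries compared, a replicate block, Y-linked genes as a covariate, limma 3.58.1 voom with quality weights, 0.1 as the threshold and each library left out in turn. The newer dispersion estimate of edgeR, the motif search with 1 mismatch and the pericentral relations were added after the data were seen. The edgeR fit was tested on simulated counts. Protein sequence of the P450 enzymes was not used here. The 3 genes most like each of the 10 were named, except 1 that is not reported here.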

Additional observations from a re-analysis of the deposited data

Results flagged for a closer look

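Cyp8b1 in control liver 2 stood at 792 CPM while the other 3 control livers lay between 92.8 and 205 CPM, a gap of 0.84 of the whole range of the group, above the 95% critical value that Dixon's test gives for 4 samples. Cyp8b1 in TKO tumor 3 stood at 480 CPM while the other 3 TKO tumors lay between 57.3 and 124 CPM, a gap of 0.842 of the range. Each of the 10 genes was looked at in each of the 3 groups, 30 groups of values in all, and 2 were singled out. Chance alone singles out about 1 in 20 where values follow a normal distribution. The values looked at were CPM, and log2 CPM, on which a high value stands out less, was not tested.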

How the results depend on the processing

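Low depth limited few of these values, since the fewest counts of any of the 10 genes in a library were 45 for Nr0b2. Of 880 recomputed member values, 811 kept their direction and side of the threshold, 10 lost and 17 gained a call, and 42 changed sign, none of which was a call.

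The 10 genes called numbered 0 in the DKO tumors and became 3 with DESeq2 and voom, 1 with only the libraries compared and 2 at an adjusted p under 0.1, and 0 to 1 as each library was left out. In the TKO tumors 0 became 1 with DESeq2, voom and an adjusted p under 0.1, and 0 to 1 as each library was left out. Over both genotypes 1 became 3 with DESeq2 and voom and 0 with total counts and with the Y-linked covariate, and 0 to 3 as each library was left out. The further bile acid genes called numbered 2 in the DKO tumors and became 8 with DESeq2, 9 with voom, 8 at an adjusted p under 0.1 and 0 with total counts or the Y-linked covariate, and 0 to 2 as each library was left out. In the TKO tumors 0 became 3 and between the tumor genotypes 0 became 1 with DESeq2. Over both genotypes 1 became 8 with DESeq2, 7 with voom, 6 at an adjusted p under 0.1, 2 with the newer edgeR dispersion estimate and 0 with total counts, no filter or the Y-linked covariate, and 0 to 6 as each library was left out. The replicate block used numbers that join libraries of different mice, so it is no check of a batch. With it the counts of the 10 genes stayed at 0, 0, 0 and 1 in the DKO, TKO, TKO against DKO and joint comparisons. The block gave 3, 0, 0 and 2 further genes and 509, 1, 0 and 441 of all genes, beside 336, 12, 0 and 344 without it. Over all genes DESeq2 called 1518, 507, 56 and 1422, voom 1804, 97, 0 and 1813, total counts 59, 9, 0 and 61, an adjusted p under 0.1 1460, 80, 0 and 1317, only the libraries compared 759 in the DKO tumors, no filter 22 in the TKO tumors, and the Y-linked covariate 0 in each. As each library was left out these counts ran from 0 to 651 in the DKO tumors, 0 to 231 in the TKO tumors and 0 to 1019 over both genotypes, each highest without TKO tumor 3. Total counts moved the median log2 fold change of all genes to 0.069, 0.174, 0.109 and 0.121.

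The correlation of Nr0b2 with Cyp7a1 was -0.577 (permutation p = 0.0491 unadjusted and 0.221 adjusted), so it did not pass after adjustment. The unadjusted permutation p stayed under 0.05 in 5 of 17 alternatives. It did not stay there as Spearman's rho (-0.538) or as deviations from the group means (-0.464). Nor did it without the 2 libraries farthest from the median (-0.285) or with total counts (-0.413). As each library was left out, r ran from -0.735 to -0.343.

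The Y-linked covariate itself differed between control livers and tumors, so its fits take up part of the group difference. Signs changed with the Y-linked covariate for Cyp7a1 (0.62 in the DKO tumors, 0.08 in the TKO tumors and 0.35 over both), Cyp27a1 (0.44, 0.23 and 0.34, and -0.20 for TKO against DKO), Slco1b2 (0.41 in the DKO tumors and 0.10 over both), Abcb11 (0.10 in the TKO tumors and 0.30 over both) and Cyp7b1 (-0.20 for TKO against DKO). With total counts they changed for Cyp7a1 (0.06) and Nr0b2 (0.02) for TKO against DKO and Abcb11 over both (0.02), and with voom for Abcb11 in the DKO tumors (-0.03) and Cyp7a1 for TKO against DKO (0.14). As each library was left out, the value of Abcb11 ran from -0.21 to 0.26 in the DKO tumors and from -0.24 to 0.09 over both, and that of Cyp8b1 from -1.67 to 0.41 in the TKO tumors. For TKO against DKO it ran from -1.11 to 0.74 for Cyp7a1, -0.12 to 0.71 for Cyp7b1, -0.22 to 0.66 for Cyp27a1, -0.03 to 0.37 for Baat, -0.12 to 0.33 for Slc10a1, -0.46 to 0.00 for Abcb11, -0.93 to 0.29 for Slco1b2 and -0.49 to 0.37 for Nr0b2. The causes were not tested.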
